A study of Homo sapiens with 4 samples.

Results

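The translation initiation factors are the proteins that bring the initiator tRNA, the mRNA and the ribosomal subunits together at the start codon. Here they were taken as the genes whose symbol begins with EIF1 to EIF6, without the EIF2AK kinases, the EIF4EBP cap inhibitors, Y-linked genes and pseudogenes, plus PABPC1 and PABPC4. Among probe sets listed for a single gene, 45 of 19775 genes met this rule, 43 of them protein-coding and 2 noncoding RNAs named after a neighbouring factor. The samples were cultures of MM.1S, an established human multiple myeloma cell line, given the vehicle DMSO (the control, with no culture time in its label) or MLN4924 at 250 nM, harvested after 8, 16 and 24 h. The drug blocks the enzyme that activates NEDD8, a modifier that cullin-RING ubiquitin ligases depend on. Each condition had 1 array, from total RNA of bulk cultures of a single line, so no test between conditions was possible and every value below is the difference of 1 array from another. The comparisons ask how the transcripts of each factor complex stood in drug-treated cells relative to control cells.

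In cap-dependent initiation eIF2, loaded with GTP and the initiator tRNA, joins eIF1, eIF1A, eIF3 and eIF5 on the small ribosomal subunit. The eIF4F complex binds the mRNA cap and unwinds the leader, and poly(A)-binding protein holds the other end of the mRNA. eIF2B then recharges eIF2 with GTP, and the mTOR kinase controls access of eIF4E to eIF4G. Myeloma cells, which secrete antibody, make large amounts of protein, and several initiation factors belong to the mRNAs with a terminal oligopyrimidine tract (5′ TOP mRNAs), whose translation follows mTOR activity.

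The arrays were alike in scale, with median intensities of 92.2 (control), 95.1, 94.3 and 95.4 (8, 16 and 24 h). The 3′ to 5′ ratio of the GAPDH control probe sets lay between 1.18 and 1.21 on all arrays, and that of ACTB between 1.95 and 2.21. All 7 plasma cell and MM.1S markers were measured, from 314 to 10030. Of the markers of other cells, the 2 myeloid genes with a probe set were not measured (19.5 to 51.0), 1 of 3 T and NK genes and 1 of 3 fibroblast genes were measured (at most 117 and 244), and HBB, the only erythroid marker with a probe set, stood at 995 to 1219. Each gene was read from the probe set brightest over the 4 arrays, and called measured where that probe set's geometric mean passed 93.9, the midpoint of all probe sets. Between measured probe sets of the same gene the differences from control had a pooled SD of 0.16 (log2) at 8 h, 0.19 at 16 h and 0.18 at 24 h, which leaves out the spread between cultures. In bulk cultures, less RNA per cell and fewer cells that make it cannot be told apart.

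The initiation factors had small differences from control that grew between 8 and 16 h. Of the 45 genes 44 were measured, and 31 of them had an intensity above 1000 on every array. Their median log2 differences were 0.0071, -0.092 and -0.056 (8, 16 and 24 h), against 0.0071, 0.026 and 0.016 over all 12446 measured genes. At 8 h 24 of the 44 stood above the control, at 16 h 19 and at 24 h 19, against 51.7%, 54.3% and 52.6% of all measured genes. The members spread apart with time, with an SD between genes of 0.15 at 8 h, 0.27 at 16 h and 0.29 at 24 h, and those of all genes were 0.22, 0.29 and 0.29. At 8 h 10 members differed from control by more than the SD between probe sets, at 16 h 26 and at 24 h 28 of the 44. These are 22.7%, 59.1% and 63.6%, against 39.1%, 44.4% and 46.1% of all measured genes.

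On its brightest probe set no member reached a 2-fold difference at any time. Such a difference was reached by 0.249%, 0.675% and 0.707% of all measured genes at 8, 16 and 24 h, in either direction. A dimmer EIF5B probe set (254 on the control array) stood at 1.87, 0.93 and 1.65. On the brightest probe sets a 1.5-fold difference was reached by EIF5B at 16 h (lower) and by the noncoding RNA EIF3J-DT at 24 h (higher). None reached it at 8 h on that reading, while another dim EIF5B probe set (211 on the control array) stood at 0.61 then. Of all measured genes, 0.731% were 1.5-fold higher and 1.12% lower at 8 h, 2.24% higher and 2.73% lower at 16 h, and 2.85% higher and 2.31% lower at 24 h. A limit of 1.2-fold, chosen after the values were seen, took in more. At 8 h 3 members were higher and 3 lower, against 9.2% and 9.24% of all genes. At 16 h 7 were higher and 9 lower, against 16.3% and 13.9%, and at 24 h 10 were higher and 10 lower, against 15.7% and 13.8%. With the median over each gene's probe sets 5 were higher at 24 h, and without _x_at and _s_at probe sets 4 at each later time. Genes lower by at least 1.2-fold at both 16 and 24 h made up 18.2% of the measured members (8 genes) and 8.58% of all measured genes. Those higher at both times made up 11.4% (5 genes) and 10.4%. The 8 lower genes were EIF1AX, EIF2S1, EIF2B1, EIF2B2, EIF4E, EIF4G2, EIF4A3 and EIF5A, and the 5 higher ones EIF3F, EIF3K, EIF4B, EIF2D and EIF3J-DT.

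**Figure D1:**
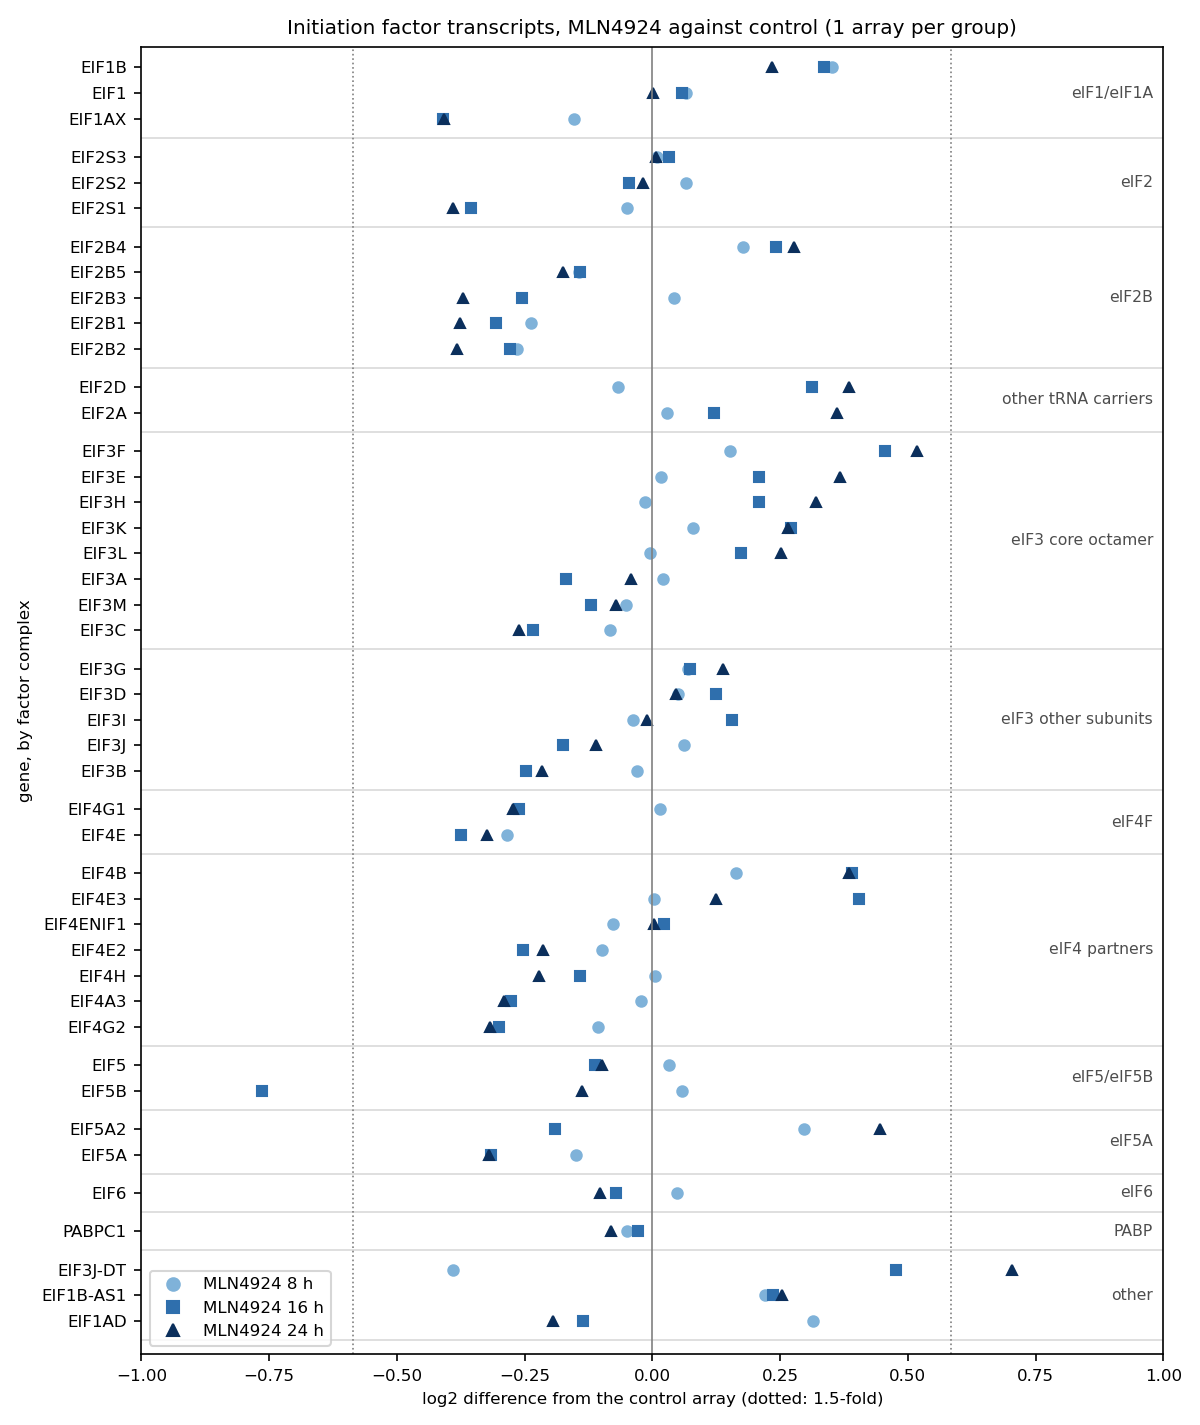
Log2 difference from the control array (x axis) of each of the 44 measured initiation factor genes (y axis, grouped by complex), with a circle for 8 h, a square for 16 h and a triangle for 24 h of MLN4924, 1 array each, and dotted lines at 1.5-fold. Most points lie within the dotted lines, EIF5B at 16 h lies to the left of them and EIF3J-DT at 24 h to the right.

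EIF1 and eIF1A bind the small subunit and keep it open for scanning until the start codon is found, and their genes went separate ways. EIF1AX, on the X chromosome at 20124525 to 20141838 (GRCh38.p14), encodes eIF1A. Its intensities were 3913 in control cells and 3517, 2945 and 2951 in cells treated for 8, 16 and 24 h. The 16 and 24 h arrays were thus nearly equal and both below the other arrays, at -0.41 and -0.41 (log2), or 1.33-fold lower at each time. Its 3 other measured probe sets were lower too at both times. EIF1, which guards start codon choice, stood at 14496, 15169, 15089 and 14503 on its brightest probe set, a difference of at most 0.066. EIF1B, its close paralog, stood at 1636 on the control array and at 2086, 2066 and 1925 on the treated arrays, all above the control, by 0.35, 0.34 and 0.23. EIF1 and EIF1B share much of their coding sequence. Of the 6 other measured EIF1 probe sets 5 were above the control at 8 h, 5 at 16 h and 4 at 24 h. Among them 3 bright _x_at probe sets stood at 0.34 to 0.38 at 8 h, more than the SD between probe sets. They stood at 0.24 to 0.27 at 16 h and 0.20 to 0.21 at 24 h.

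The 3 subunits of eIF2, the carrier of the initiator tRNA, differed from one another. EIF2S1 encodes the alpha subunit, whose phosphorylation by the eIF2 kinases slows initiation. Its intensities were 1742, 1684, 1362 and 1329 (control, 8, 16 and 24 h). It was near the control at 8 h and below it at both later times, with log2 differences of -0.36 and -0.39, and its 2 other measured probe sets were also below the control then. EIF2S2, the beta subunit, stood at 0.065, -0.047 and -0.018, and EIF2S3, the GTP-binding gamma subunit, at 0.0088, 0.033 and 0.0079. As read from the brightest probe set, neither of these differed from control by more than the SD between probe sets at any time. A dimmer second probe set of EIF2S2 (254 on the control array) stood at 0.087, -0.20 and -0.27. At 16 and 24 h it was beyond that SD.

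The genes of eIF2B, the guanine nucleotide exchange factor of eIF2, were mostly lower at the later times. The median of its 5 genes was -0.14, -0.25 and -0.37 at 8, 16 and 24 h, with 4 of 5 below the control at 16 and 24 h. Of all 12446 measured genes 5689 and 5897 were below it then. EIF2B1 stood at 1225 on the control array and at 1039, 990 and 944, lower on each treated array, with -0.38 at 24 h. EIF2B2 stood at 669 and at 557, 551 and 513, again lower on each, with -0.38 at 24 h. They encode the alpha and beta subunits, which belong to the regulatory part of the complex that senses phosphorylated eIF2. EIF2B3, the gamma subunit of the catalytic part, stood at 880, 907, 738 and 681, near the control at 8 h (0.042) and lower later, at -0.25 and -0.37. EIF2B5, the catalytic epsilon subunit, stood at 776, 702.5, 703 and 687, slightly lower on each treated array (-0.14, -0.14 and -0.18). The exception was EIF2B4, the delta subunit of the regulatory part. It stood at 756 on the control array and at 855, 894 and 917, higher on each, with 0.18, 0.24 and 0.28, and a second probe set agreed, with 0.24 at 16 h and 0.23 at 24 h. EIF2B1, EIF2B2, EIF2B3 and EIF2B5 had a single measured probe set each.

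EIF2A and EIF2D encode proteins that can bring an initiator tRNA to the ribosome without eIF2, and both were higher at 24 h. EIF2D stood at 1231, 1174, 1528 and 1608 (control, 8, 16 and 24 h), so the later arrays were both above the others (0.31 and 0.39). EIF2A stood at 1925, 1963, 2093 and 2472, with the 24 h array highest (0.36). Each had a single measured probe set. MCTS1 and DENR, partners that together resemble eIF2D and are no members, stood at 0.11 and -0.0085 at 24 h. The other measured probe sets of DENR ranged from -0.12 to 0.34 then, and that of MCTS1 stood at 0.16.

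Within eIF3, the large scaffold that links the small subunit to eIF4G, subunits lay on both sides of the control. Over the 13 measured subunits the distance between the highest and the lowest was 0.24, 0.70 and 0.78 on the log2 scale (8, 16 and 24 h). The SD between subunits was 0.064, 0.22 and 0.24, below the 0.22, 0.29 and 0.29 between all measured genes, and at the later times above the 0.19 and 0.18 between probe sets of the same gene. The medians were 0.017, 0.13 and 0.045. In the core octamer, built from PCI and MPN domain proteins, the median of the 8 genes was 0.0057, 0.19 and 0.26. At both 16 and 24 h 5 of 8 were above the control, against 54.3% and 52.6% of all measured genes. That direction depended on the probe sets: the core median was -0.049 at 16 h and 0.13 at 24 h with the median over each gene's probe sets, and -0.18 and -0.034 without those named _x_at and _s_at, which can read several transcripts. The 5 other subunits had medians of 0.049, 0.073 and -0.0097.

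EIF3F, a subunit with an MPN domain, at 7987337 to 8001852 on chromosome 11 (GRCh38.p14), had the largest positive difference of the coding members as read from the brightest probe set. With the median over its probe sets it stood at 0.23 at 24 h, below EIF4B (0.70). The EIF3F intensities were 4317, 4797, 5920 and 6181 (control, 8, 16 and 24 h). Each array was higher than the one before it in time, with 1.37-fold at 16 h and 1.43-fold at 24 h over control. EIF3E, a PCI domain subunit, stood at 4643, 4696, 5367 and 5987. EIF3H, with an MPN domain like EIF3F, stood at 6307, 6247, 7292 and 7874. For both genes the 8 h array was at the control level and the 24 h array was highest, 1.29-fold for EIF3E and 1.25-fold for EIF3H. EIF3K stood at 5612, 5933, 6772 and 6747 and EIF3L at 8182, 8152, 9226 and 9747, with log2 differences at 24 h of 0.27 and 0.25. The 3 other measured probe sets of EIF3K had the same sign.

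The second probe sets of EIF3F, EIF3E and EIF3H did not follow the first. That of EIF3F, with intensities of 324, 366, 242 and 311, stood at -0.42 at 16 h and -0.056 at 24 h. That of EIF3E (294, 246, 225 and 291) stood at -0.38 and -0.011, and that of EIF3H (247, 222, 210 and 219) at -0.23 and -0.17. These were dim beside the probe sets above, which were 4317 or more on every array. What part of each transcript a probe set reads was not used here.

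The other core subunits were lower or near the control. EIF3A, the largest subunit and the backbone of the complex, stood at 4416, 4479, 3929 and 4291, with -0.17 at 16 h and -0.041 at 24 h. Its 2 other measured probe sets were both lower, the dimmer one at -0.77 at 16 h and -0.43 at 24 h. EIF3M stood at -0.052, -0.12 and -0.071 on its brightest probe set. Of its 3 other measured probe sets, a bright one stood at -0.015, -0.13 and 0.0020. The dim ones were lower, 1 at -0.43, -0.65 and -0.32 (194 on the control array) and 1 at -0.29, -0.45 and -0.46 (164.5). EIF3C stood at -0.084, -0.23 and -0.26, from a dim probe set (353 on the control array), since its brighter probe sets are listed for several genes and were not used.

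Of the 5 subunits outside the octamer, EIF3B, which carries the RNA recognition motif and propeller of the peripheral module, was lowest. It stood at 3289, 3222, 2771 and 2833, lower on both later arrays (-0.25 and -0.22), and its 4 other measured probe sets agreed in sign at both times. EIF3J, a loosely bound subunit, stood at 0.062, -0.17 and -0.11. EIF3D, a cap-binding subunit, stood at 0.049, 0.13 and 0.045, EIF3G, which binds RNA, at 0.070, 0.073 and 0.14, and EIF3I, a propeller subunit, at -0.037, 0.16 and -0.0097. On the brightest probe set none of EIF3D, EIF3G, EIF3I and EIF3J passed the SD between probe sets at any time. A dimmer second probe set of EIF3J stood at 0.075, -0.21 and 0.0021, beyond that SD at 16 h alone.

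**Figure D2:**
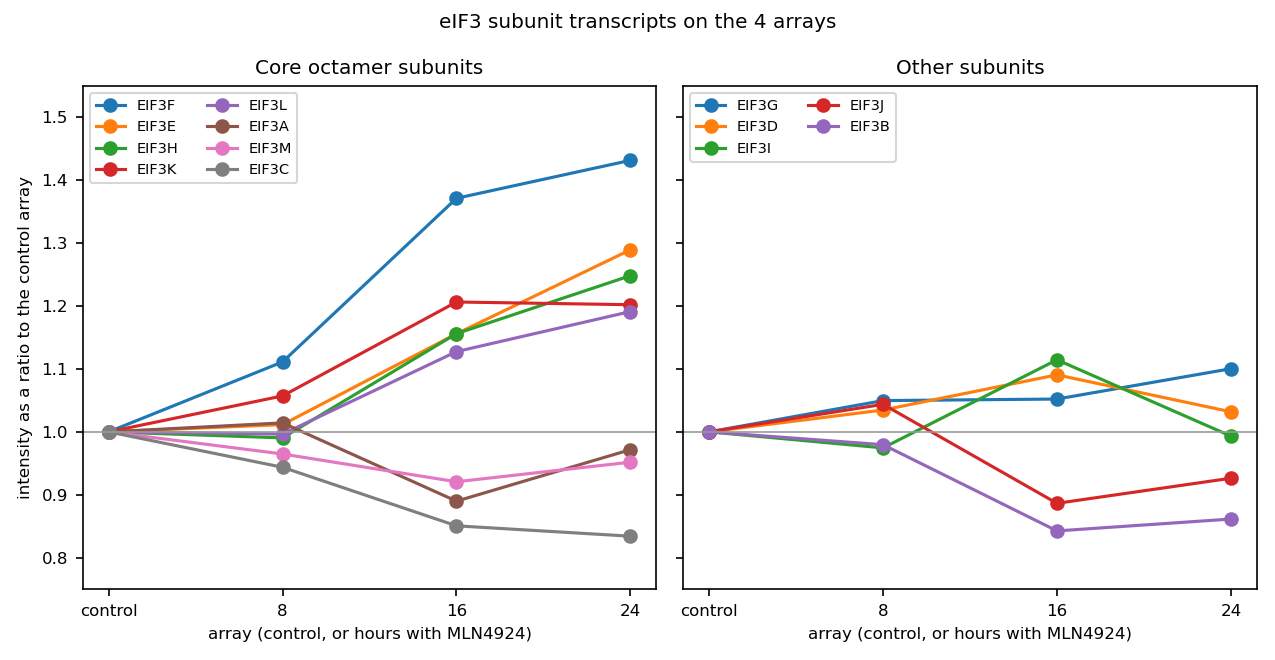
Intensity as a ratio to the control array (y axis) of the 8 core octamer subunits and the 5 other subunits of eIF3 on the control, 8, 16 and 24 h arrays (x axis), 1 line per gene. EIF3F, EIF3E, EIF3H, EIF3K and EIF3L lie above the control line at 16 and 24 h, while EIF3A, EIF3M, EIF3C, EIF3B and EIF3J lie below it.

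Cap recognition by eIF4F was represented by its cap-binding and scaffold subunits, both lower at the later times. EIF4E, the cap-binding protein, stood at 2057 on the control array and at 1689, 1588 and 1644 on the treated arrays. It was below the control on each, with log2 differences of -0.28, -0.37 and -0.32, and its 2 other measured probe sets were also lower at 16 and 24 h. EIF4G1, the main scaffold, stood at 2162, 2185, 1804 and 1789, with -0.26 and -0.27 at 16 and 24 h. A second probe set of almost the same brightness (2006, 1889, 2060 and 1897) stood at 0.038 and -0.081, so the EIF4G1 difference rests on a single probe set. EIF4A2, one of the helicases of the complex, had a probe set of its own that was at the floor on all 4 arrays (24.3 to 35.6). Its bright probe sets, and all those of EIF4A1 and PABPC4, are listed for several genes, and these genes are not analysed here.

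Of the 7 genes for eIF4 partners and relatives, 4 were below the control at 16 and 24 h and 3 above. Of all measured genes 54.3% and 52.6% were above it. The 7 had medians of -0.023, -0.14 and -0.21, and of -0.022 and -0.024 at the later times without _x_at and _s_at probe sets. EIF4B, which boosts the helicase and is a substrate of S6 kinase, was the highest of them at 24 h. It lies at 53006456 to 53042215 on chromosome 12 (GRCh38.p14) and stood at 4386, 4915, 5750 and 5728, above the control on each treated array, 1.31-fold at 16 h and 1.31-fold at 24 h. Its 2 other measured probe sets had the same sign, one with 0.61 and 0.70 and the other with 0.44 and 0.45. EIF4H, a smaller helper of the helicase related to it, stood at 0.0053, -0.14 and -0.22.

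EIF4G2, also called DAP5, a relative of the scaffold that lacks the cap-binding partner site, stood at 12014, 11153, 9752 and 9639. It was lower on each treated array, with -0.30 and -0.32 at the later times. A second measured probe set of EIF4G2, much dimmer (129 on the control array), stood at 0.065, -0.10 and -0.0085. EIF4A3, a helicase of the exon junction complex rather than of eIF4F, stood at -0.023, -0.28 and -0.29. EIF4E2, a cap-binding relative used in repression, stood at -0.098, -0.25 and -0.21, with its 3 other measured probe sets below the control at 16 and 24 h and 2 of them at 8 h. EIF4E3, another cap-binding relative, stood at 639, 641, 846 and 697, high on the 16 h array alone (0.40), and 2 of its 3 other measured probe sets shared that sign. EIF4ENIF1, which carries eIF4E to the nucleus and to P-bodies, stood at -0.076, 0.023 and 0.0038.

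EIF5B, the GTPase that joins the large ribosomal subunit, had the largest difference of any measured member. It lies at 99337389 to 99401326 on chromosome 2 (GRCh38.p14), and its brightest probe set stood at 3301, 3437, 1945 and 2999 (control, 8, 16 and 24 h). Only the 16 h array was low, 1.70-fold below the control (-0.76) and -0.82 from 8 h, and the 24 h array was 0.62 above the 16 h array. All 6 measured EIF5B probe sets were lower at 16 h than at both 8 and 24 h, and 5 of 6 were lower than the control. The remaining one stood at 254 on the control array and at 929, 483 and 799, so it was above the control at each time (1.87, 0.93 and 1.65) while still lowest at 16 h among treated arrays. EIF5B was the only measured member at least 0.5 (log2) lower at 16 h than at both 8 and 24 h, as were 62 genes in all (0.498% of measured genes). EIF5A2 fell just short on its brightest probe set, with -0.49 from 8 to 16 h and 0.64 from 16 to 24 h. Its second measured probe set stood at -0.20 and -0.038 for these steps. Its genomic span was 63.9 kb, against a median of 21.6 kb for the measured members, 4 of which were longer. EIF5, which triggers GTP hydrolysis by eIF2, stood at 2356, 2411, 2179 and 2201 on its brightest probe set, with small differences of 0.033, -0.11 and -0.098. Its 4 other measured probe sets were also below the control at 16 and 24 h. The brightest of these (1215 on the control array) stood at -0.26 and -0.31, beyond the SD between probe sets.

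**Figure D3:**
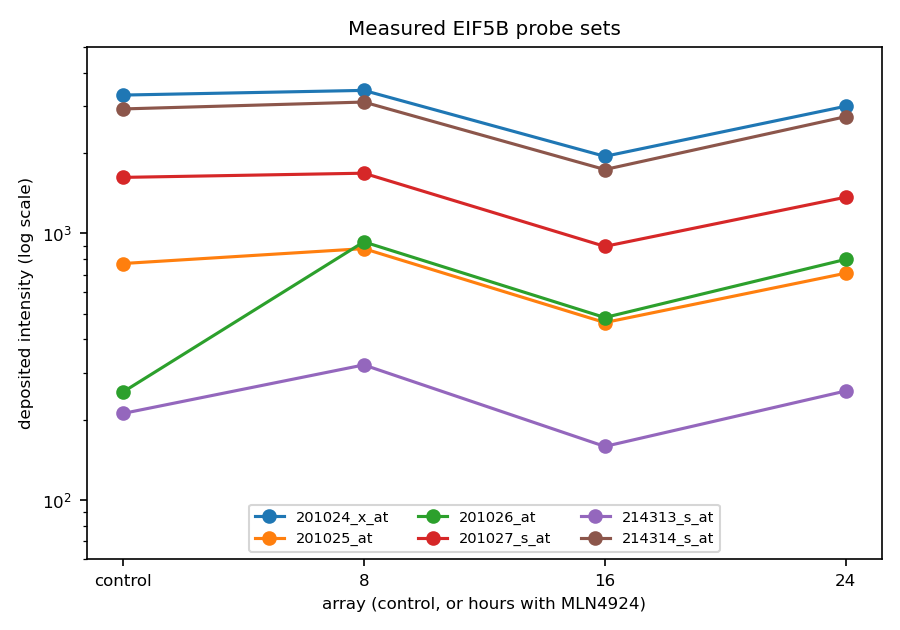
Deposited intensity on a log axis (y) of the 6 measured EIF5B probe sets on the control, 8, 16 and 24 h arrays (x), 1 line per probe set. Each line is lower at 16 h than at 8 and 24 h, and 1 of them is far lower on the control array (254) than on the treated arrays.

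EIF5A, which carries the hypusine residue and helps ribosomes past difficult peptide bonds, stood at 10554, 9521, 8478 and 8455. It was lower on each treated array, with log2 differences of -0.15, -0.32 and -0.32, with both other measured probe sets lower at 16 and 24 h. Its paralog EIF5A2 was much dimmer, at 210, 258, 184 and 286, and had no steady direction (0.30, -0.19 and 0.45). Its second measured probe set stood at 0.028 and -0.010 at 16 and 24 h. EIF6, which keeps the large subunit from joining too early, stood at 1645, 1700.2, 1567 and 1533, all close to one another (0.048, -0.070 and -0.10). PABPC1, the main cytoplasmic poly(A)-binding protein, stood at 14456, 13960, 14181 and 13674 on an _x_at probe set, a kind that can read related sequences, and differed by at most 0.080.

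Between treated arrays, 1.5-fold was passed from 8 to 16 h by EIF5B (lower, against 1.61% of all genes) and EIF3J-DT (higher, 0.87, against 1.86%). From 16 to 24 h EIF5B (0.62) and EIF5A2 (0.64) were at least 1.5-fold higher, against 0.739% of all genes, and no member was lower, against 0.0884%. Between 16 and 24 h 32 of the 44 members lay within 0.1 on the log2 scale (72.7%), as did 50.4% of all measured genes. These steps share the 16 h array.

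The 3 members that are not core factors had their own courses. EIF3J-DT, a noncoding RNA whose annotated span ends just upstream of EIF3J on chromosome 15 (44534505 to 44536923, GRCh38.p14), stood at 136 on the control array and at 104, 189 and 221. It was below the control at 8 h and above it later, 1.63-fold at 24 h, at intensities not far above the array medians. EIF1B-AS1, a noncoding RNA named for its antisense place at EIF1B, stood at 196, 228, 230 and 233, above the control by 0.22, 0.24 and 0.25, beside the 0.35, 0.34 and 0.23 of EIF1B. EIF1AD, a nuclear protein with an eIF1A-like domain, stood at 830, 1032, 755 and 726, higher at 8 h alone. Whether these probe sets read EIF3J-DT apart from EIF3J, or EIF1B-AS1 apart from EIF1B, was not tested.

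Because 5′ TOP mRNAs begin with a C and a stretch of pyrimidines, the letters at the listed transcription start were read from RefSeq promoters (GRCh38.p14) for the members. This grouping was chosen after the values were seen, and so it was given no test. A run was counted where the first base at a listed start was C and at least 4 C or T followed it, read on the strand of the gene only. Of the 37 measured members with a listed start 8 had such a run (21.6%), against 6.93% of the 10036 measured genes with a listed start and 4.07% of all 35116 listed starts. EIF2S2, EIF3A, EIF3E, EIF3G, EIF3H, EIF3L and PABPC1 had no listed start. Each sequence below runs 5′ to 3′ from 12 bases before to 18 bases from the start, with the run in capitals. These 8 are shown because they carry the comparison that follows.
EIF3F (chr11:7987325-7987354, + strand): cgcttccgcctcCTTCTTTCTCgacaagat
EIF3D (chr22:36529149-36529178, - strand): cgcgcatgtttcCTCTTTTCCTggtttctc
EIF3K (chr19:38619176-38619205, + strand): cgtttccaccacCTCTTCCTgttcccgtcc
EIF2A (chr3:150546775-150546804, + strand): cccgagcggtttCTCTTTCCgggacaacat
EIF3M (chr11:32583819-32583848, + strand): cggcccagttccCTTTTCCggtcggcgtgg
EIF2D (chr1:206612448-206612477, - strand): ttccagccgggcCCTTTTCgcggccgggcc
EIF2S3 (chrX:24054944-24054973, + strand): gtgatttccttcCTCTTTTggcaacatggc
EIF4B (chr12:53006444-53006473, + strand): cctcatccgggtCTTTTgcgttctctttcc

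The members with a single listed start, no run and the lowest values at 24 h are set beside them. Since they were picked by those values, their contrast in value with the 8 was set beforehand. Members with no run that stood above the control, such as EIF2B4 (0.28) and EIF1B (0.23), are not shown. Here the capital marks the first transcribed base alone.
EIF1AX (chrX:20141821-20141850, - strand): aagagtcgcggcGccatttgctgccgccga
EIF2S1 (chr14:67360316-67360345, + strand): aggaggttccgcAtgcgcggtggagtgagc
EIF2B2 (chr14:75002909-75002938, + strand): ctcgcccgccccGgaagtgcaaactgtgtg
EIF2B1 (chr12:123633669-123633698, - strand): gggtacggaagtGcgccggaagtggggtgc
EIF2B3 (chr1:44986578-44986607, - strand): gggctgtcagtcAgaggcggcgtggagatc
EIF4E (chr4:98929116-98929145, - strand): tctggagcggttGtgcgatcagatcgatct

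The members with a pyrimidine run lay mostly above the control, and those without one mostly below. The 8 with a run had median log2 differences of 0.039, 0.20 and 0.31 at 8, 16 and 24 h, and the 29 without one -0.023, -0.19 and -0.19. At 24 h 7 of 8 stood above the control, against 8 of 29. EIF3F, EIF4B, EIF2D, EIF2A and EIF3K made up the upper values with a run (0.52 to 0.27), while EIF3D, EIF2S3 and EIF3M lay near 0 (0.045, 0.0079 and -0.071). Over all measured genes the contrast was small, with medians at 24 h of 0.045 for the 695 genes with a run and 0.011 for the 9341 without. Above the control at 24 h stood 404 of the 695 and 4836 of the 9341. The 8 members with a run were also brighter, with a median level of 12.3 (log2) against 10.7 for the other 29, and the part of level in this contrast was not tested. Without probe sets named _x_at and _s_at the 24 h median with a run was 0.045. A listed start is the annotation's and was not measured in these cells.

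**Figure D4:**
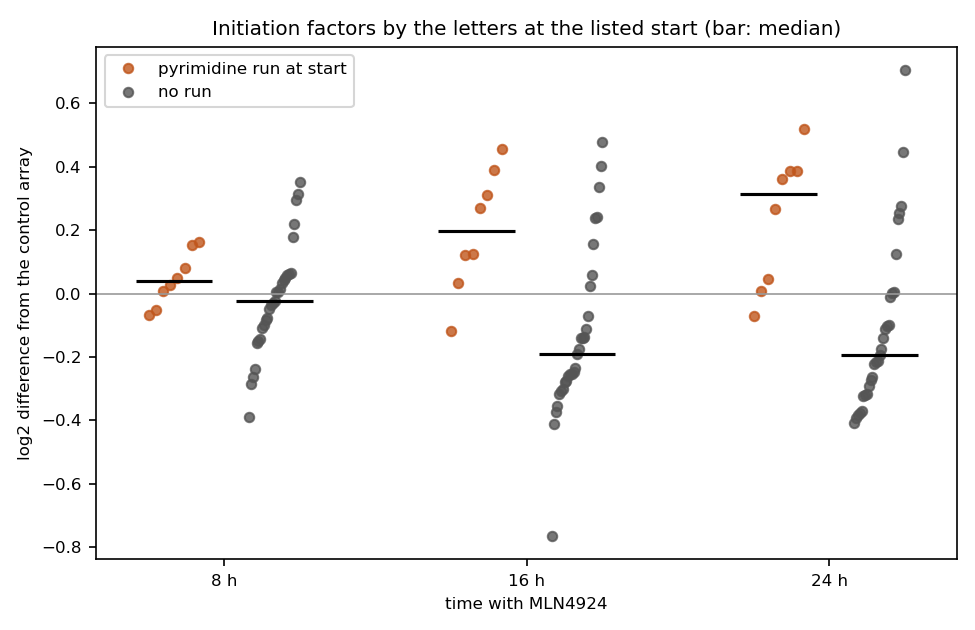
Log2 difference from the control array (y axis) at 8, 16 and 24 h (x axis) of the 8 measured members with a C and at least 4 pyrimidines at a listed start (orange, left in each pair) and the 29 without (grey, right), 1 point per gene with a bar at the median. At 24 h the medians are 0.31 and -0.19, and the groups overlap.

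The regulators of initiation and the factors of later steps were set beside the members as a list of 38 genes, of which 33 were measured. Their medians were -0.018, 0.0073 and -0.0085 at 8, 16 and 24 h. At 16 h 1 was at least 1.5-fold higher and 1 lower, at 24 h 1 was higher, and at 8 h none passed. At 1.2-fold 8 were higher and 7 lower at 16 h, and 5 higher and 7 lower at 24 h, of 33, against the shares of all genes given above (16.3% and 13.9%, then 15.7% and 13.8%). Among the measured cap regulators 6 of 8 stood above the control at 16 h and 5 of 8 at 24 h, against 54.3% and 52.6% of all measured genes. From mTOR to S6 kinase 3 of 4 genes stood below it at both times, as did 5689 and 5897 of all 12446 measured genes. RPS6KB2, counted there, was at -0.069 and -0.082, within the SD between probe sets. The gene higher at both times was EIF2AK4, which encodes GCN2, the eIF2 kinase that senses uncharged tRNA. It stood at 499.9, 582, 1207 and 1126 (control, 8, 16 and 24 h). Both later arrays were more than 2-fold above the control (2.41-fold and 2.25-fold), and a dimmer second probe set stood at 0.067 and 0.20. The gene lower at 16 h was RPS6KB1, an S6 kinase that phosphorylates eIF4B, at 744, 679, 424 and 581. Its 16 h array was lowest (-0.81), and its 2 other measured probe sets were lower too, at -0.35 and -0.41. The rest of the eIF2 list was split at 24 h. PPP1R15A (GADD34) and PPP1R15B (CReP), which recruit the phosphatase to eIF2, stood at 0.50 and -0.20. A second measured probe set of PPP1R15A stood at 0.26. Of the kinases EIF2AK3 (PERK) stood at 0.35, EIF2AK1 (HRI) at -0.15 and EIF2AK2 (PKR) at -0.085. In the cap list EIF4EBP1, which binds and blocks eIF4E, stood at 0.21, -0.26 and -0.48, and EIF4EBP2, its relative, at 0.17, 0.36 and 0.17. ABCE1, which splits ribosomes for reuse, stood at -0.19, -0.52 and -0.28, and its second measured probe set at 0.032, -0.26 and -0.10.

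**Figure D5:**
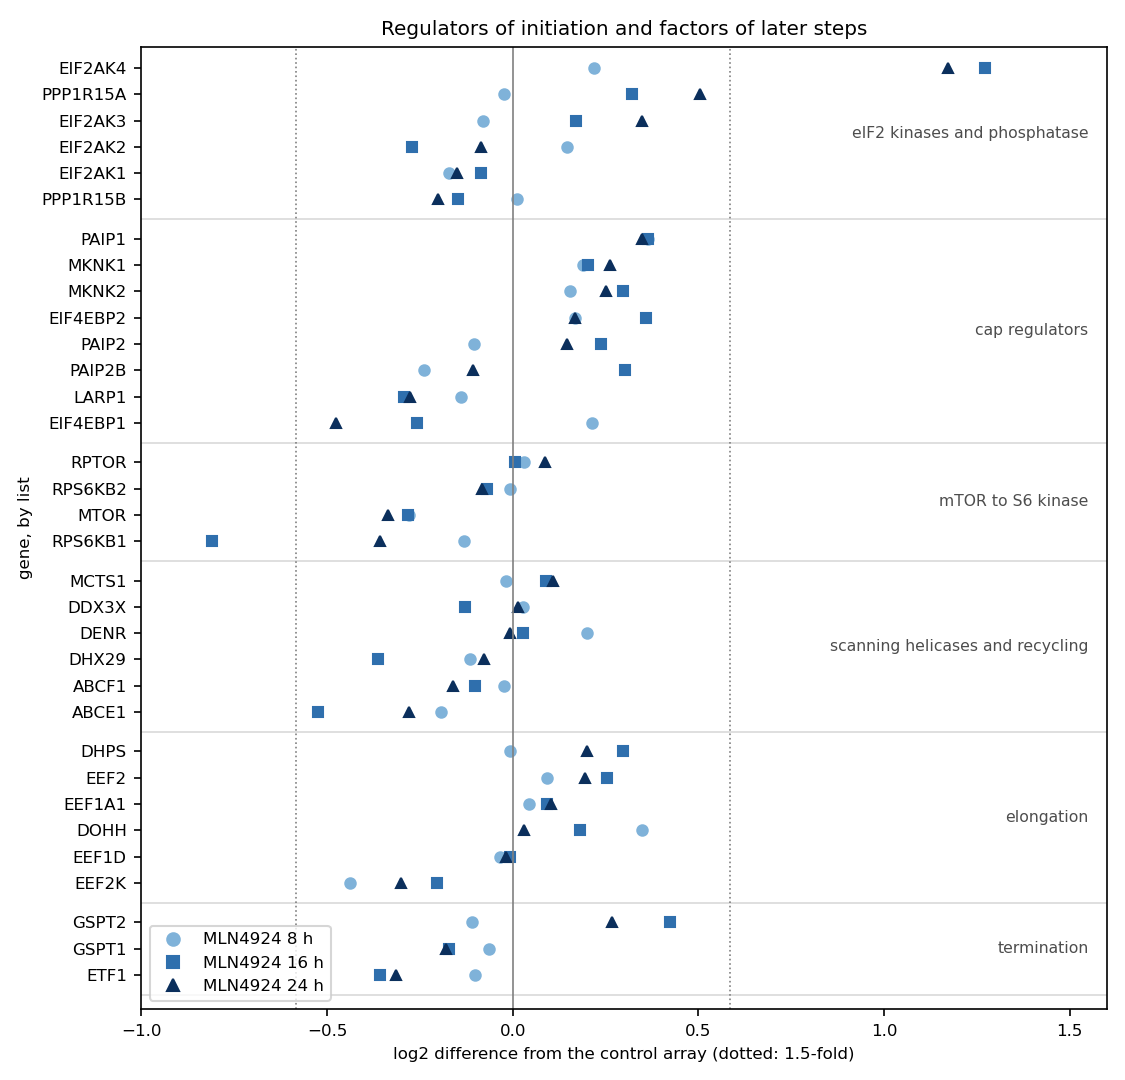
Log2 difference from the control array (x axis) of the 33 measured regulators and later-step factors (y axis, grouped by list) at 8 h (circle), 16 h (square) and 24 h (triangle) of MLN4924, 1 array each, with dotted lines at 1.5-fold. EIF2AK4 lies to the right of the dotted line at 16 and 24 h, and RPS6KB1 lies to the left at 16 h.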

How the data were processed

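Total RNA of MM.1S cultures was made into biotinylated cRNA for Affymetrix arrays, per the labels. The values deposited by the authors are intensities on a linear scale. How the authors summarised, corrected or scaled them is not stated in the labels or the file. No detection calls were used.

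Of 54675 probe sets 41097 were listed for 1 gene (41043 matched to RefSeq by Entrez identifier). Values under the 25th percentile of all arrays (48.4) were set to it, and log2 was taken. Each gene took the value of its brightest probe set over the 4 arrays, and 12446 of 19775 genes passed the filter. Differences were taken against control with no test, since each group had 1 array. Alternatives changed the probe set rule, filter, floor (a pseudocount of 32) and scaling. The procedure was tested on simulated data in which all probe sets of a gene shifted together by 2-fold. That test did not cover smaller differences, or probe sets of a gene that shift apart. Python 3.11.15, numpy 2.4.6 and pandas 2.3.3 were used.

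The members, complexes and lists were chosen with earlier results of these data known. Every member may be named, and of the regulators those at least 1.5-fold from control, plus the rest of the eIF2 kinases and phosphatase subunits, MCTS1, DENR, EIF4EBP1, EIF4EBP2 and ABCE1, named after their values were seen. EIF4G3 and EIF5AL1 were not analysed here.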

Additional observations from a re-analysis of the deposited data

Results flagged for a closer look

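For 3 members the differences at separate times had opposite signs, each beyond the SD between probe sets, and this change of direction was not tested. EIF1AD stood at 0.31 at 8 h and -0.19 at 24 h, while its second measured probe set stood at 0.13 and -0.058. EIF3J-DT stood at -0.39 at 8 h and at 0.48 and 0.70 at 16 and 24 h, on 1 probe set. EIF5A2 stood at 0.30 and 0.45 at 8 and 24 h and at -0.19 at 16 h. Each is the difference of 1 array from 1 control array.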

How the results depend on the processing

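No paired analysis was possible because each group had 1 array. Of the 312 results on medians and counts under an alternative, 280 stayed within their limits of spread or 1.5 times in count. That share is no measure of robustness, because the filter alternatives keep each gene's brightest probe set. They could move medians and counts only by adding or dropping genes. Most results that moved did so under the alternatives that change which probe sets are read. With the median over a gene's measured probe sets, the eIF3 core median was -0.084, -0.049 and 0.13 at 8, 16 and 24 h, the eIF1 and eIF1A median 0.34, 0.24 and 0.21, the eIF2 median at 24 h -0.15 and the median of all members at 24 h -0.089. In that setting 1 member was 1.5-fold higher at 16 h and 2 at 24 h, and 5 were 1.2-fold higher at 24 h. The medians at 16 h were 0.12 with a pyrimidine run and -0.14 without. Without probe sets named _x_at and _s_at, the eIF3 core median was -0.18 and -0.034 at 16 and 24 h, that of eIF1 and eIF1A 0.25 at 8 h and -0.31 at 24 h, that of eIF2 -0.20 and -0.27 at 16 and 24 h, that of eIF4 partners -0.022 and -0.024 and that of the regulators -0.073 and -0.051. There 2 members were 1.5-fold lower at 16 h, 4 were 1.2-fold higher at 16 h and 4 at 24 h, and the medians were 0.12 and 0.045 with a run at 16 and 24 h and -0.14 without at 16 h. With at least 6 pyrimidines after the C the 16 h median with a run was 0.13. With the filter at the 75th percentile 0 members were 1.5-fold higher at 24 h, and with quantile normalization the median of all members at 16 h was -0.062. Of 64 single-gene differences beyond the SD between probe sets, 7 changed sign in some alternative, those of EIF3E and EIF5A2 at 16 and 24 h, EIF3F at both times and EIF3H at 16 h, and each of these did so where a dimmer probe set was read. The cause of the differences between probe sets was not tested. The number of arrays limits the precision.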
